A study of Rattus norvegicus with 4 samples.

Results

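Glucocorticoid receptor (GR) binding to hippocampal chromatin after a high dose of corticosterone was described from 2 of the 4 libraries of the series, the GR library and the IgG library at 3000 µg/kg, by all their reads on chromosomes 1 to 20 and X of the rat build rn4. These were 461308 of 468802 reads for GR and 459217 of 468802 reads for IgG. The animals were male Sprague-Dawley rats, 8 weeks old, whose adrenal glands had been removed 3 days earlier, at both doses of the series, which takes away the body's own source of corticosterone. They received 3000 µg/kg corticosterone bound to hydroxypropyl-cyclodextrin and were killed after 1 hour. Chromatin was immunoprecipitated with 6 µg of the GR antibody H-300 or with 6 µg of normal rabbit IgG, which measures the background of the procedure. Hippocampal hemispheres, 6 to a pool, were combined after shearing and the pool was then divided between the antibodies, so the libraries share their chromatin and neither stands for an animal. The corresponding libraries at 300 µg/kg, with 459136 GR reads and 458480 IgG reads, serve as a second reading. They had no part in calling regions, strong sites or bins of high and low ratio, but 2 sites were named for their GR reads at 300 µg/kg and bins were sorted once by the IgG reads there.

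GR is a nuclear receptor that waits in the cytoplasm in a complex with chaperone proteins and moves to the nucleus when it binds a glucocorticoid. There it binds DNA, often as a dimer at a short palindromic sequence, the glucocorticoid response element, or through other transcription factors, and raises or lowers transcription of nearby genes. The hippocampus is rich in GR and is a main site of corticosteroid feedback on the brain. In ChIP-seq, DNA fragments that carry a bound protein are read from their ends, so a bound site appears as a cluster of plus-strand read starts followed, about a fragment length downstream, by a cluster of minus-strand read starts.

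The files hold the same number of reads, and GR:IgG ratios were scaled to each library's total on chromosomes 1 to 20 and X, which differ slightly, so that a ratio of 1 stands for the mean over these chromosomes. At 170 GR and 169 IgG reads per Mb the libraries are shallow. No group has a replicate. Intervals are exact 95% intervals (Clopper-Pearson) from the split of the reads between a pair of libraries, they cover counting error only, and they compare libraries and not conditions. Many reads had a partner on the opposite strand 50 to 140 bases away (30.5% for GR, 52.8% for IgG at 3000 µg/kg), and where such a pair is a single fragment the intervals on reads are too narrow. No rn4 gene annotation or genome sequence was used here, so sites are given by coordinates counted from 1, without genes or motifs, and the tissue was not checked against marker genes. In whole tissue, a lower occupancy per cell and fewer cells with bound receptor cannot be told apart.

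The first comparison asked how GR reads were spread over the genome on a broad scale. GR and IgG reads were unevenly distributed relative to each other at the scale of 1 Mb. Of 2648 whole 1-Mb bins with at least 100 reads in both libraries together, 77 (2.91%) had a GR:IgG ratio of at least 1.5 and 201 (7.59%) had a ratio of at most 0.667. The middle 90% of bins lay between 0.629 and 1.40 with a median of 0.952. The log2 ratio had a standard deviation (SD) of 0.35 over bins, where counting error alone gives 0.17, which leaves 0.31 beyond counting.

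The same measure gave a narrower spread in the other pairs of libraries. At 300 µg/kg the GR:IgG log2 ratio had an SD of 0.21 over the same bins against 0.17 from counting. Only 2 bins (0.0755%) reached 1.5 and 15 (0.566%) fell to 0.667 or less. Between the IgG libraries of the doses the SD was 0.22 against 0.16 from counting, with 17 bins (0.642%) at 1.5 or more and 12 (0.453%) at 0.667 or less. The GR library at 3000 µg/kg thus departed from its IgG library in more bins than the IgG libraries departed from each other.

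**Figure D1:**
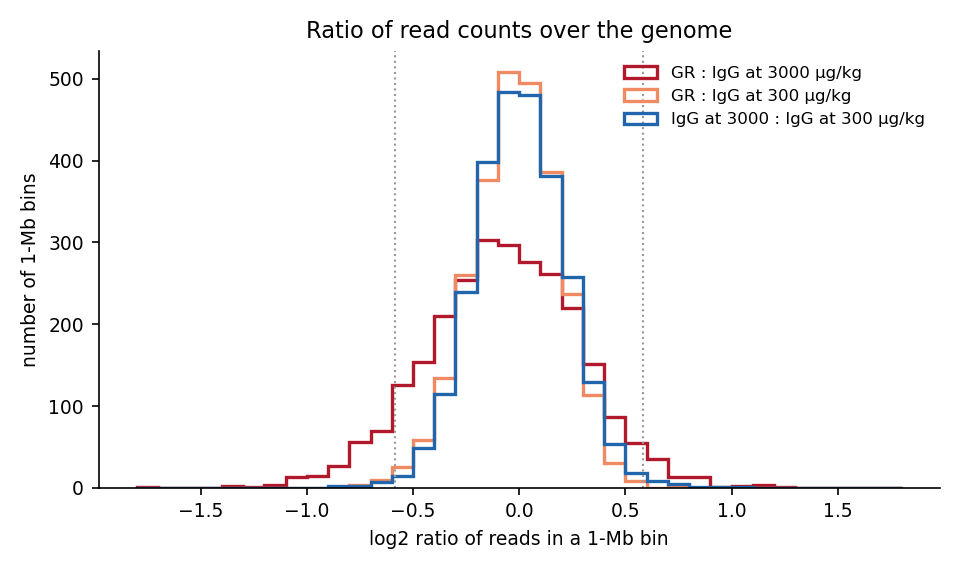
Number of 1-Mb bins (y axis) by the log2 ratio of their reads (x axis) for GR over IgG at 3000 µg/kg, GR over IgG at 300 µg/kg and IgG at 3000 over IgG at 300 µg/kg, with dotted lines at ratios of 1.5 and 0.667. The distribution for GR over IgG at 3000 µg/kg is the widest, with an SD of 0.35 against 0.21 and 0.22.

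Bins next to each other tended to deviate in the same direction. The correlation of the log2 GR:IgG ratio between neighbouring bins was 0.29 over 2584 pairs of bins at 3000 µg/kg, 0.04 at 300 µg/kg and 0.07 between the IgG libraries. In bins of 5 Mb the SD of the ratio at 3000 µg/kg was still 0.22. These bins share libraries and local base composition and are not replicates.

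The highest ratio of a bin was 2.30 (1.97 to 2.70), on chromosome 20 from 6000001 to 7000000, where 523 GR reads stood against 226 IgG reads at 3000 µg/kg and 284 against 256 at 300 µg/kg. Chromosome 8 from 52000001 to 53000000 followed with 512 GR and 227 IgG reads at 3000 µg/kg, a ratio of 2.25 (1.92 to 2.64), and with 285 and 234 at 300 µg/kg, a ratio of 1.22 (1.02 to 1.45). The next bins were chromosome 20 from 27000001 with a ratio of 2.20, chromosome 15 from 57000001 with 2.16 and chromosome 12 from 22000001 with 2.10. All 5 held 2 to 4 of the strong sites described below and 9 to 20 called regions.

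The lowest ratios lay in bins poor in reads. Chromosome X from 129000001 to 130000000 held 29 GR and 94 IgG reads at 3000 µg/kg, a ratio of 0.31 (0.20 to 0.47), and 53 against 72 reads at 300 µg/kg. Chromosome 1 from 49000001 to 50000000 held 35 GR and 89 IgG reads at 3000 µg/kg, a ratio of 0.39 (0.26 to 0.58), but 92 against 93 reads at 300 µg/kg. Chromosome X from 59000001, chromosome X from 9000001 and chromosome 13 from 27000001 had ratios of 0.40, 0.43 and 0.44. None of these 5 bins held a called region.

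The bins of extreme ratio were chosen on the libraries at 3000 µg/kg and were then read at 300 µg/kg. In the 77 bins of high ratio the GR:IgG ratio at 300 µg/kg was 1.11 (1.09 to 1.13), and 63 of them were above 1, compared with 1271 of all 2648 bins. In the 201 bins of low ratio it was 0.948 (0.930 to 0.965), and 119 (59.2%) were below 1. That share is not far from the one over all bins, of which 48.0% were above 1. In both groups the ratio over all their reads thus went in the same direction in the independent pair of libraries. Its size was far smaller there than at 3000 µg/kg (1.67 and 0.597, which the choice of bins raises and lowers). In the same bins the IgG library at 3000 µg/kg itself held 0.914 (0.893 to 0.934) and 1.14 (1.12 to 1.16) times the reads of that at 300 µg/kg, which is the direction that choosing bins on IgG counts at 3000 µg/kg gives. Over all bins the log2 GR:IgG ratios of the doses, which share no library, had a Pearson correlation of 0.26 and a Spearman correlation of 0.24 (n = 2648 bins).

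Broad excess and sites went together. Regions in which GR reads exceeded IgG were located in windows of 300 bases (Poisson p threshold 1e-05, minimum 4 reads), which 15425 of 27186680 windows passed (0.0567%), against 2204 windows (0.00811%) when the libraries were exchanged. Overlapping windows merged into 6255 regions for GR and 1300 in the exchange. In the 713 bins without a called region the GR:IgG ratio was 0.778 (0.770 to 0.785). It was 0.888 in the 544 bins with 1 region, 1.00 (0.993 to 1.01) in the 735 bins with 2 to 3, 1.16 (1.15 to 1.17) in the 453 bins with 4 to 6 and 1.38 (1.36 to 1.40) in the 203 bins with 7 or more. The regions were chosen on the same reads, so this order describes the libraries and is not a test.

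Reads away from the regions and reads of the other dose showed the same order. With reads within 1 kb of a called region left out of both libraries, and scaled to the remaining totals, the ratio was 0.871 (0.863 to 0.879) in bins without a region and 1.16 (1.15 to 1.18) in bins with 7 or more. At 300 µg/kg the ratio in these groups of bins was 0.950 (0.942 to 0.959), 0.979, 0.994, 1.04 and 1.09 (1.07 to 1.10), in order of rising number of regions. With reads near the regions left out there too, it was 0.968 (0.959 to 0.977) in the first group and 1.05 (1.03 to 1.06) in the last. The SD over bins at 3000 µg/kg fell to 0.28 without the reads near regions, and 12 bins with a ratio of at least 1.5 were left. Leaving out these reads removes 11.5% of GR reads and 0.869% of IgG reads, and regions too weak to be called stayed in. The groups also differed in read density, with a median of 129 IgG reads per bin at 300 µg/kg in the first and 227 in the last. Windows had to exceed at least the genome mean of GR reads, so dense bins yield more regions by construction. The part of density in this order was not tested.

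**Figure D2:**
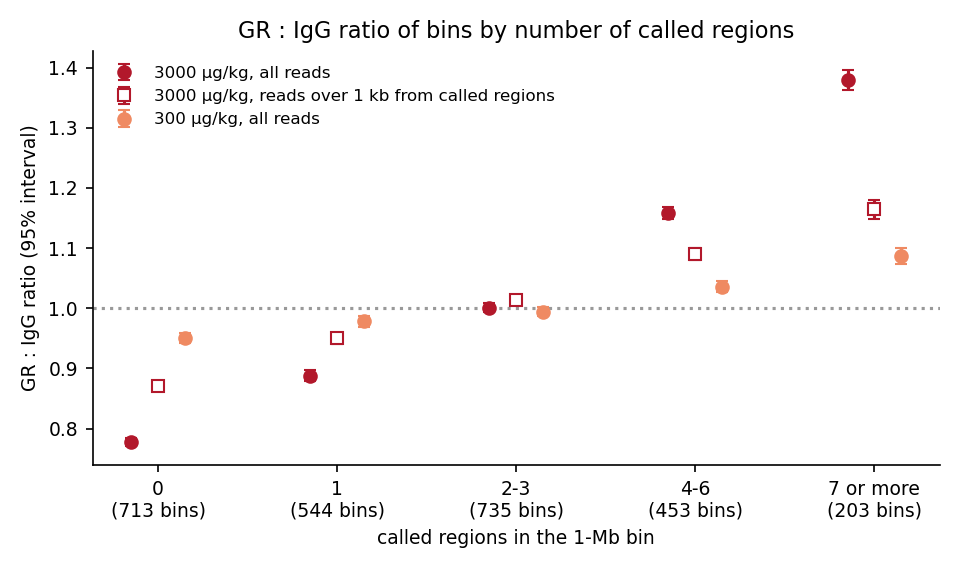
GR:IgG ratio (y axis, bars are exact 95% intervals) of 1-Mb bins grouped by the number of called regions they hold (x axis), for all reads at 3000 µg/kg, for reads over 1 kb from called regions at 3000 µg/kg and for all reads at 300 µg/kg. The ratio rises from 0.778 to 1.38 with all reads, from 0.871 to 1.16 away from the regions and from 0.950 to 1.09 at 300 µg/kg.

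The ratio also moved with the general density of reads. Bins were sorted into quintiles by the reads of the IgG library at 300 µg/kg, which is no part of the ratio at 3000 µg/kg, a grouping chosen after seeing the data. The GR:IgG ratio at 3000 µg/kg was 0.801 (0.791 to 0.811) in the quintile with 37 to 128 reads per bin, then 0.878, 0.958 and 1.06, and 1.17 (1.16 to 1.18) in that with 216 to 326. These quintiles held 6, 19, 32, 61 and 111 strong sites. The GR:IgG ratio at 300 µg/kg stayed between 0.982 and 1.02 over the quintiles. The sorting library is its denominator, and the sorting itself raises that ratio in sparse bins and lowers it in dense bins. These values therefore cannot show whether the ratio at 300 µg/kg moved with density. The ratio of IgG at 3000 to IgG at 300 µg/kg, which has the same denominator, fell from 1.09 to 0.937. The part of read density in the broad pattern was not tested further.

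Whole chromosomes differed by less than bins. The GR:IgG ratio was highest on chromosome 12, with 9511 GR and 8332 IgG reads and a ratio of 1.14 (1.10 to 1.17), followed by chromosome 10 with 1.10 (1.08 to 1.12) and chromosome 19 with 1.07 (1.04 to 1.09). It was lowest on chromosome X, with 10434 GR and 11951 IgG reads and a ratio of 0.869 (0.847 to 0.892), then on chromosome 2 with 0.947 (0.934 to 0.960) and chromosome 13 with 0.955 (0.936 to 0.975). The interval lay above 1 on 7 chromosomes and below 1 on 8 of 21. At 300 µg/kg it lay above 1 on 2 and below 1 on 3, and chromosome 12 had a ratio of 1.01 (0.979 to 1.04).

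Chromosome X had a lower GR:IgG ratio, and fewer called regions and strong sites per 100 Mb, than any autosome. The ratio of X over that of the 20 autosomes was 0.866 (0.844 to 0.889) at 3000 µg/kg, 0.954 (0.929 to 0.979) at 300 µg/kg and 1.04 (1.01 to 1.07) for IgG at 3000 over IgG at 300 µg/kg. Without reads near called regions the value at 3000 µg/kg was 0.929 (0.904 to 0.954). Called regions numbered 43.6 per 100 Mb on X and from 185 (chromosome 2) to 406 (chromosome 12) on the autosomes. Reads were sparser on X in IgG too, with 11951 over 160686370 bases, against 42474 over 258197475 bases on chromosome 2. Windows had to exceed at least the genome mean of GR reads, so a chromosome with sparse reads yields fewer regions by construction. The share of the difference due to this was not tested. Over the 21 chromosomes the GR:IgG ratio had a Pearson correlation of 0.97 with the number of called regions per 100 Mb. With the number of strong sites per 100 Mb it was 0.82. Both regions and strong sites were chosen on the same reads.

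The second comparison asked what the strongest sites look like. Strong sites were taken as called regions with at least 20 GR reads and an IgG count of at most 25% of the GR count, and 229 of the 6255 regions (3.66%) met this. With the paired reads merged into single fragments, 59 sites did. The 229 strong sites held 1.5% of the GR reads. A median strong site held 27 GR reads (20 to 85) and 1 IgG read (0 to 5) at 3000 µg/kg, and 5 GR reads (0 to 28) and 0 IgG reads (0 to 4) at 300 µg/kg. The counts at 3000 µg/kg chose the sites and are a description. At the limit, 25 regions held 20 GR reads and were taken, and 49 held 19 and were not. The exchange of the libraries gave 1 such site.

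Read starts at strong sites formed a pair of narrow clusters, the plus strand before the centre and the minus strand after it. The centre of a site was the midpoint between the median plus-strand and the median minus-strand start. Summed over the 229 sites and smoothed over 50 bases, plus-strand starts were densest 51 bases before the centre and minus-strand starts 42 bases after it, a distance of 93 bases. In the 25 bases of highest count there were 665 plus-strand and 663 minus-strand starts, and at positions -300 to -276 from the centre there were 14 of each. With each start moved 75 bases in its direction, the profile had a full width of 138 bases at 50% of its height. This move exceeds the distance of both maxima from the centre, so the strands cross, which in itself widens the profile. The widths of profiles given below carry the same move. Strands were balanced, with 3450 plus-strand and 3451 minus-strand reads, 49.99% on the plus strand (48.8 to 51.2%), and no site held more than 3 times as many reads on 1 strand as on the other. Where an opposite-strand pair is a single fragment, it adds 1 read to each strand by construction. The balance is then partly fixed in advance, and the interval, which treats reads as independent, does not measure its error.

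The GR library at 300 µg/kg had nearly the same shape at centres it had not set. Its strand maxima lay 84 bases apart, at 51 bases before and 33 bases after the centre, and its profile was 140 bases wide. The 929 sites with 10 to 19 GR reads, with the same limit on IgG, had a distance of 96 bases and a width of 130 bases in the GR library at 3000 µg/kg. Each plus-strand read was also paired with the first free minus-strand read 50 to 140 bases downstream, and the reads left over were taken alone. At the strong sites these had a distance of 98 bases and a width of 116 bases. Their maxima lay 20 bases before and 78 bases after the centre, and so were displaced from those of all reads. At a dense site a read left over can still have an opposite-strand read at that distance that another pair had used. The distance in these reads is therefore not free of the pairing.

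**Figure D3:**
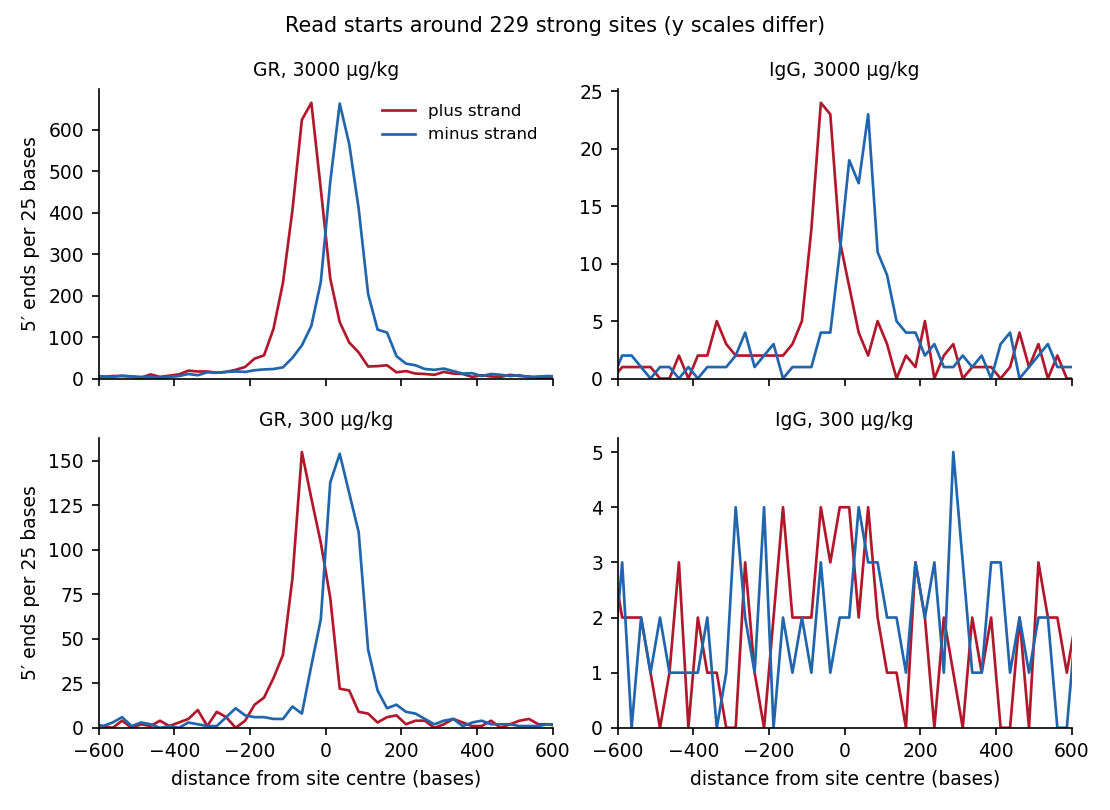
Read starts per 25 bases on each strand (y axis, scales differ) by distance from the centre of 229 strong sites in bases (x axis), summed over sites in each of the 4 libraries. GR reads of both doses form a plus-strand cluster before and a minus-strand cluster after the centre, IgG at 3000 µg/kg shows the same shape at a low level, and IgG at 300 µg/kg shows no clear shape.

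The IgG library at 3000 µg/kg carried a small signal of the same shape. Within 100 bases of the centres of strong sites it held 189 reads, against 44 in the IgG library at 300 µg/kg, a ratio of 4.29 (3.08 to 6.10). Between 200 and 500 bases the libraries held 72 and 70 reads. Its strand maxima at the sites lay 98 bases apart and its profile was 125 bases wide. The limit of 25% on IgG holds for this library in the choice of sites and does not remove the signal, and its origin was not tested. With IgG at 300 µg/kg as the control, the GR:IgG ratio within 100 bases rose from 29.3 (25.4 to 34.1) to 125.8 (93.6 to 173.4).

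Single sites varied around the common shape. The distance between the strand medians had a median of 95 bases over the 229 sites, and 178 sites lay between 70 and 130. The central 80% of reads of a site spanned a median of 155 bases (83 to 725). Plus-strand and minus-strand medians were in reverse order or equal at 7 sites and over 150 bases apart at 11.

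The site with the lowest Poisson p was on chromosome 8, from 52001001 to 52001800, with its centre at 52001398. It held 40 plus-strand and 45 minus-strand GR reads at 3000 µg/kg, 2 IgG reads, and 19 GR and 2 IgG reads at 300 µg/kg, and its strand medians were 118 bases apart. On chromosome 1 from 118371301 to 118372000, 34 plus-strand and 43 minus-strand GR reads stood against 2 IgG reads, with 21 and 2 reads at 300 µg/kg and a distance of 112 bases. The site on chromosome 1 from 77410101 to 77410700 was narrower. Its 61 GR reads, against 1 IgG read, had strand medians 81 bases apart and a central 80% of 116 bases, and 22 GR reads and 0 IgG reads lay there at 300 µg/kg. Its densest 100 bases on 1 strand held 31 reads, all at different positions, since the files keep at most 1 read per position and strand.

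The site on chromosome 4 from 150233001 to 150233600 was the most compact of the 12 of lowest p, with 18 reads on each strand, a central 80% of 99.5 bases, 0 IgG reads, and 7 GR and 0 IgG reads at 300 µg/kg. Chromosome 7 from 74250801 to 74251500 had nearly the same form, with 18 reads on each strand, medians 97.5 bases apart and a central 80% of 115 bases, and it held 12 GR and 0 IgG reads at 300 µg/kg. Chromosome 2 from 180112801 to 180113500 held 56 GR reads against 1 IgG read, with medians 88.5 bases apart, and 11 GR and 0 IgG reads at 300 µg/kg. These 3 sites keep to the shape of the sum.

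Broader sites were found among the 12 and at the widest regions. The site on chromosome 2 from 140547701 to 140548900, with 1200 bases the widest region along with chromosome 4 from 30258101 to 30259300, held 52 GR and 0 IgG reads. The central 80% of its reads spanned 646 bases, and only 4 GR and 0 IgG reads lay there at 300 µg/kg. Chromosome 10 from 60195701 to 60196500 had 82 GR reads against 5 IgG reads, with a central 80% of 356 bases, and 1 GR and 0 IgG reads at 300 µg/kg. The site on chromosome 4 from 30258101 held 28 GR and 0 IgG reads, with a central 80% of 725 bases, and 1 GR and 0 IgG reads at 300 µg/kg.

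The remaining sites of lowest p were chromosome 3 from 5190901 to 5191600, chromosome 14 from 84115501 to 84116300, chromosome 1 from 190275401 to 190276000 and chromosome 10 from 52900401 to 52901100. They held 42 to 46 GR reads and 0 to 1 IgG reads at 3000 µg/kg, and 5 to 18 GR and 0 to 1 IgG reads at 300 µg/kg. At the site on chromosome 3, 29 plus-strand and 15 minus-strand reads had medians 197 bases apart.

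The most GR reads at 300 µg/kg among strong sites were found at 2 sites, chromosome 10 from 55856101 to 55856800 and chromosome 1 from 226342801 to 226343500. The former held 45 GR and 1 IgG reads at 3000 µg/kg, with 28 GR and 2 IgG reads at 300 µg/kg, and had medians 82.5 bases apart. The latter held 56 GR and 1 IgG reads at 3000 µg/kg, with 24 GR and 0 IgG reads at 300 µg/kg, and had medians 90 bases apart. The central 80% of reads spanned 134 bases at the former and 229 at the latter, against a median of 155.

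The strand distance ranged widely around its median. The largest distances, 280 and 273 bases, belonged to chromosome 14 from 84838701 to 84839600, with 32 GR reads, and chromosome 8 from 104262301 to 104263100, with 30. The smallest, -116 and -101.5 bases, belonged to chromosome 7 from 62593701 to 62594500, with 22 GR reads, and chromosome X from 21311001 to 21311900, with 21. The last is 1 of only 2 strong sites on chromosome X. At these 4 sites the central 80% of reads spanned 349 to 443 bases, against a median of 155 over all strong sites.

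The excess of GR reads fell steeply within 1 kb of a strong site and then slowly over a much longer distance. Each read was counted once, at its distance from the nearest strong site. The GR:IgG ratio at 3000 µg/kg was 29.3 within 100 bases (5570 against 189 reads), 20.5 (15 to 28.7) at 100 to 200 bases, 8.34 (6.52 to 10.8) at 200 to 500 bases and 3.9 (3.00 to 5.12) at 0.5 to 1 kb. Beyond that it was 2.31 (1.92 to 2.79) at 1 to 2 kb, 2.04 (1.80 to 2.32) at 2 to 5 kb, 1.94 (1.75 to 2.15) at 5 to 10 kb, 1.63 (1.51 to 1.76) at 10 to 20 kb, 1.39 (1.32 to 1.45) at 20 to 50 kb and 1.27 (1.22 to 1.32) at 50 to 100 kb. Farther out, in distances added after seeing the data, it was 1.13 (1.10 to 1.16) at 100 to 200 kb and 1.05 (1.03 to 1.06) at 500 to 1000 kb.

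The long tail was smaller without the reads of other called regions. With reads within 1 kb of another called region left out and the scale kept, the ratio was 1.26 (1.02 to 1.57) at 1 to 2 kb, 1.36 (1.21 to 1.52) at 5 to 10 kb, 1.16 (1.07 to 1.26) at 10 to 20 kb and 1.12 (1.07 to 1.18) at 20 to 50 kb. At 50 to 100 kb it was 1.03 (0.989 to 1.08). These regions were called on excess GR reads, so leaving them out on a fixed scale lowers the ratio by construction, to 0.931 at 500 to 1000 kb. Scaled to the totals away from called regions, as for the bins above and added after seeing the data, the ratio was 1.42 (1.14 to 1.76) at 1 to 2 kb, 1.52 (1.36 to 1.70) at 5 to 10 kb, 1.16 (1.11 to 1.21) at 50 to 100 kb and 1.04 (1.03 to 1.06) at 500 to 1000 kb. On that scale the intervals lay above 1 up to 1000 kb. In simulated libraries with broad variation but no excess placed around sites, the ratio at 50 to 100 kb was 1.06 (1.01 to 1.11). Intervals that cover counting error only can thus lie above 1 without such an excess.

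At 300 µg/kg the excess within 100 bases was as large relative to its own IgG library, at 29.4 (21.8 to 40.7) from 1297 against 44 reads. It was 5.89 (4.01 to 8.93) at 100 to 200 bases, 2.21 (1.66 to 2.98) at 200 to 500 bases and 1.23 (0.930 to 1.62) at 0.5 to 1 kb. It was 1.3 (1.16 to 1.46) at 5 to 10 kb, 1.11 (1.02 to 1.20) at 10 to 20 kb and 1.08 (1.04 to 1.13) at 50 to 100 kb. The equal ratios within 100 bases stand on unequal IgG counts of 189 and 44 reads and do not show equal occupancy. With IgG at 300 µg/kg as the control for both doses, the GR library at 3000 µg/kg had ratios of 125.8, 27.7, 8.56 and 2.92 over the 4 distances up to 1 kb, so the steepness of the fall relative to 300 µg/kg depends on the control. Between the IgG libraries the ratio was 1.00 (0.952 to 1.06) at 20 to 50 kb and 1.00 (0.958 to 1.04) at 50 to 100 kb, and it was 1.36 (1.07 to 1.74) at 1 to 2 kb.

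**Figure D4:**
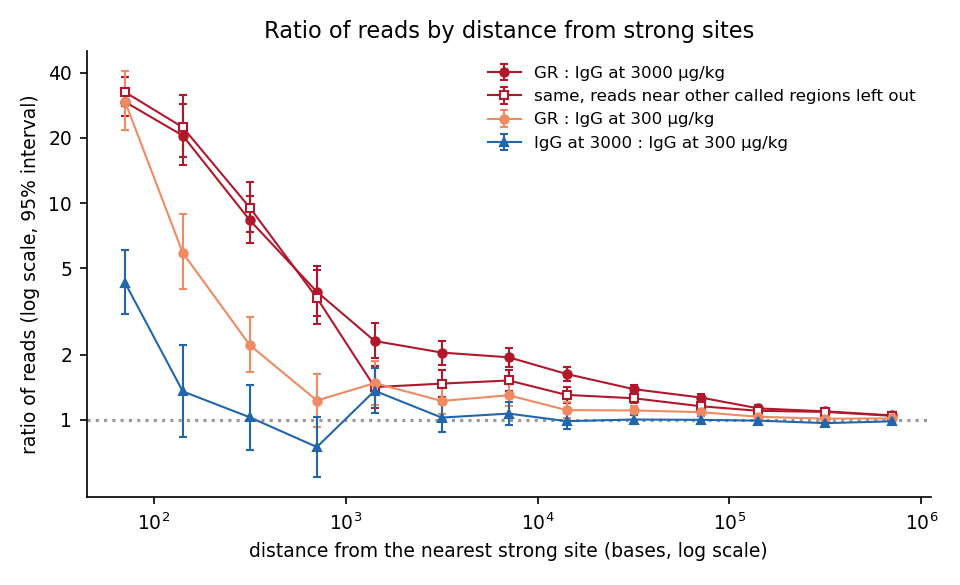
Ratio of reads (y axis, log scale, bars are exact 95% intervals) by distance from the nearest of 229 strong sites (x axis, log scale, bases), for GR over IgG at 3000 µg/kg with all reads and without reads near other called regions (scaled to the totals away from called regions), GR over IgG at 300 µg/kg and IgG at 3000 over IgG at 300 µg/kg. The ratio at 3000 µg/kg falls from 29.3 within 100 bases to 2.31 at 1 to 2 kb and 1.27 at 50 to 100 kb, where it is 1.16 without the reads near other regions.

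The third comparison asked how the sites are spaced. Of the 229 strong sites, 25 had another strong site within 20 kb, and 106 (46.3%, 39.7 to 53.0%) had a called region that was not a strong site within 20 kb. The nearest strong site on the same chromosome was a median of 1789 kb away. Even placement of the 229 sites would set them 11872 kb apart, which is a mean spacing and not a median distance to the nearest. Another strong site lay within 5 kb of 15 sites, within 20 kb of 25 of them (10.9%, 7.19 to 15.7%) and within 100 kb of 47 (20.5%, 15.5 to 26.3%). The nearest called region of any strength was a median of 23.6 kb away, and 112 strong sites (48.9%, 42.3 to 55.6%) had one within 20 kb.

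The other called regions were more often alone. Of 6026 called regions that were not strong sites, 1516 (25.2%, 24.1 to 26.3%) had another called region within 20 kb, and their median distance was 73.2 kb. The 1300 regions of the exchanged libraries, which are fewer, had a median distance of 660.5 kb, and 32 of them (2.46%, 1.69 to 3.46%) had a neighbour within 20 kb. Even placement would set these regions 2091 kb apart and all 6255 regions for GR 435 kb apart, so distances in sets of different size are not directly comparable. A region that is split by a gap in its windows counts as a pair of neighbours. With regions less than 1 kb apart joined, the median distance from a strong site to the nearest region was 28.4 kb and the share of strong sites with another within 20 kb was 10.4%.

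**Figure D5:**
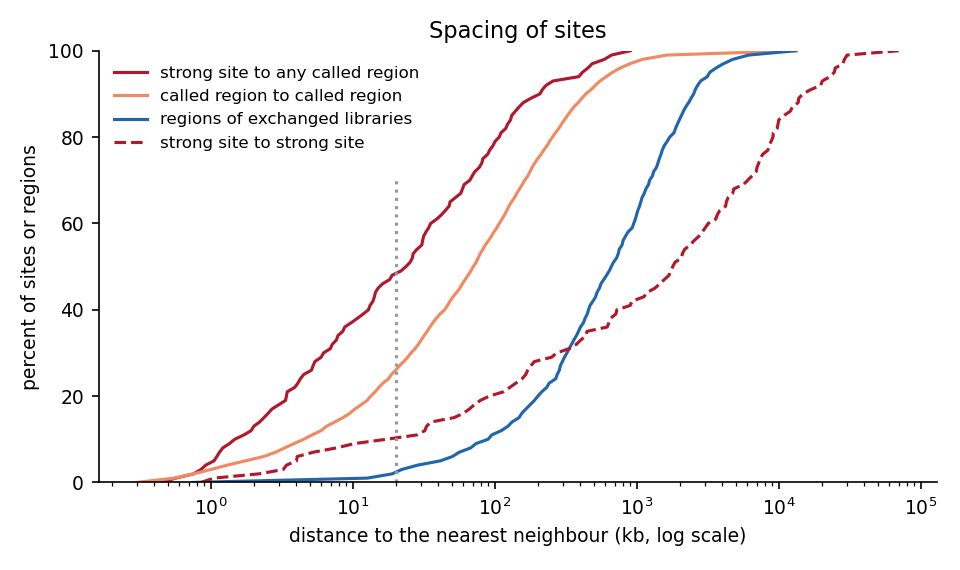
Cumulative percent of sites or regions (y axis) by distance to the nearest neighbour (x axis, log scale, kb) for strong sites to any called region, called regions to each other, regions of the exchanged libraries and strong sites to each other, with a dotted line at 20 kb. At 20 kb the curves stand at 48.9%, 26.0%, 2.46% and 10.9%.

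Strong sites within 20 kb of each other formed 11 groups with 25 sites in all, 9 of them pairs. The largest held 4 sites over 17.1 kb on chromosome 8 from 52001001 to 52018100, and these summed to 208 GR and 9 IgG reads at 3000 µg/kg and 68 GR and 6 IgG reads at 300 µg/kg. The site of lowest p is the first of them, with 85 GR reads. The others began at 52013801, 52014901 and 52017501 and held 43, 51 and 29 GR reads at 3000 µg/kg, where the GR library at 300 µg/kg held 9, 20 and 20. The weakest of the 4 at 3000 µg/kg was thus not the weakest at 300 µg/kg.

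A group of 3 sites over 11.7 kb lay on chromosome 20 from 6752101 to 6763800. They held 57, 21 and 26 GR reads at 3000 µg/kg, in order of position, and 2, 14 and 12 at 300 µg/kg. IgG reads numbered 4, 3 and 0 at the high dose and 0, 0 and 2 at the low dose. The order of these neighbours differed between the doses. Among the pairs, chromosome 20 from 27270801 to 27275500 summed to 95 GR reads at the high dose and 38 at the low dose, chromosome 10 from 55856101 to 55858900 to 73 and 35, and chromosome 1 from 203339401 to 203343400 to 58 and 2. The pair on chromosome 17 from 19221401 to 19225400 had 42 GR reads against 1 IgG read at 3000 µg/kg, and 0 GR and 2 IgG reads at 300 µg/kg.

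On the scale of 1 Mb, strong sites lay in 182 of 2648 bins (6.87%), in 48 of the 77 bins with a GR:IgG ratio of at least 1.5 and in 0 of the 201 bins with a ratio of at most 0.667. Sites and bin ratios were taken from the same reads, and a strong site adds its GR reads to its own bin. These counts therefore describe the libraries and are not a test. The most strong sites in a bin were 4, in the bins at chromosome 20 from 6000001, chromosome 8 from 52000001 and chromosome 1 from 226000001, whose GR:IgG ratios at 3000 µg/kg were 2.30, 2.25 and 2.03 (1.72 to 2.39). The third of these bins had the highest ratio of the 3 at 300 µg/kg, 1.49 (1.24 to 1.79), from 293 GR and 197 IgG reads. With reads near called regions left out, the ratios of the 3 bins at 3000 µg/kg were 1.23 (1.01 to 1.49), 1.22 (1.01 to 1.48) and 1.12 (0.923 to 1.36).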

How the data were processed

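Each deposited file lists aligned reads of 36 bases, 1 per line with a count of 1, so the deposited unit is the read count. Every file holds 468802 reads, and no source used here says how that common number arose. Per the submitters' processing notes, the build was rn4 and the tools included bedtools and MACS, with no role or order given, and no aligner was named. Per the labels' protocols, the libraries at 3000 µg/kg had 18 rounds of amplification.

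The members, bins, sites and thresholds were chosen with earlier results of these data known. Read starts were moved 75 bases in their direction. Windows of 300 bases, every 100 bases, were called (Poisson p threshold 1e-05, minimum 4 reads) against the largest of the GR genome mean and the IgG density in 1, 5 and 10 kb around the window, and overlapping windows were merged. The chromosome span, 2718671228 bases, was the sum of the highest read positions. Bins of 1 Mb with at least 100 reads in GR and IgG together were used. The SD from counting was the square root of the mean over bins of 1/GR + 1/IgG, divided by ln(2). The width of a profile was taken above the level far from the centre.

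Named sites were the 12 strong sites of lowest p, and the 2 with the largest and smallest strand distance, the most GR reads at 300 µg/kg and the largest width. Named bins were the 5 highest and 5 lowest and the 3 with the most strong sites, and named chromosomes the 3 highest, the 3 lowest and X. Groups of neighbouring sites were named after their values were seen. The scripts were tested on simulated data. Reads outside chromosomes 1 to 20 and X entered no comparison except that under other observations. Alternatives covered merged fragments, other bin sizes, scales, thresholds and controls. Python 3.11.15, numpy 2.4.6, scipy 1.17.1 and pandas 2.3.3 were used.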

Additional observations from a re-analysis of the deposited data

How the results depend on the processing

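Over 84 alternatives for 16 results, 48 stayed near the value reported, 36 moved and 0 reversed. Many of these results are counts, spreads, widths, distances or shares, which have no direction to reverse. Some alternatives used other libraries, other sites or bins of another size, and a count of bins depends on their size. The cause was not tested unless the construction gives it. No paired analysis was possible because each group is 1 library, and for the same reason no replicate could be left out.

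The 77 bins with a ratio of at least 1.5 became 48 with merged fragments, 278 in bins of 500 kb, 1 in bins of 5 Mb, 12 without reads within 1 kb of called regions and 116 with the median bin ratio set to 1. The 201 bins of low ratio became 396 in bins of 500 kb, 6 in bins of 5 Mb and 96 without reads near regions. They became 150 with merged fragments and 138 with the median bin ratio set to 1, values that were counted as near the value reported. The imbalance of 77 high against 201 low bins thus depends on the scale. The SD over bins was 0.22 in bins of 5 Mb. The correlation between doses was 0.41 in bins of 5 Mb and 0.15 without reads near regions.

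With IgG at 300 µg/kg as the control, the ratio of X over the autosomes was 0.899, the lowest ratio of a chromosome 0.902 and the highest 1.08. Without reads near regions they were 0.929, 0.931 and 1.07.

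Strong sites numbered 59 with merged fragments and 1158 with a minimum of 10 GR reads. With that minimum, 17.0% had another within 20 kb and the median distance to a called region was 37.2 kb. The ratio within 100 bases was 21.7 with merged fragments, 36.2 at sites with 10 to 19 GR reads and 125.8 with IgG at 300 µg/kg as the control, a choice added after seeing the data. At 1 to 2 kb it was 1.48 in the libraries at 300 µg/kg, 1.26 without reads near other regions and 3.15 with IgG at 300 µg/kg as the control. At 10 to 20 kb it was 1.41 at sites with 10 to 19 GR reads, 1.11 at 300 µg/kg and 1.16 without reads near other regions, and at 50 to 100 kb it was 1.15, 1.08 and 1.03 in the same order. Scaled to the totals away from called regions, also added after seeing the data, the ratios without reads near other regions were 1.42, 1.3 and 1.16 at these 3 distances.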

Other observations

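Reads outside chromosomes 1 to 20 and X were fewer in the GR library than in the IgG library, on the scale of the equal file totals. At 3000 µg/kg, 1244 GR reads and 2312 IgG reads lay on the mitochondrial genome, a ratio of 0.538 (exact 95% interval 0.502 to 0.577), and at 300 µg/kg 2596 and 2992 did, a ratio of 0.868. On unplaced sequence there were 6250 GR and 7273 IgG reads at 3000 µg/kg, a ratio of 0.859 (0.831 to 0.889), and 7070 and 7330 at 300 µg/kg, a ratio of 0.965.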
